A study of Mus musculus with 14 samples.

Results

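Cartilage and bone are built by cells that first switch on a small set of transcription factors and then secrete the matrix that those factors call for. RNA levels of 10 such genes were followed through the differentiation of mouse embryonic stem cells (ESCs) into embryoid bodies (EBs), 3-dimensional aggregates in which ESCs differentiate without a directing signal. The genes were taken by symbol, as a fixed list of known skeletal regulators and products, and make up 10 of the 50686 genes of the deposited count table: Sox9, Sox5, Runx2, Sp7, Alpl, Spp1, Acan, Comp, Msx1 and Msx2. All 10 are also among the 16181 genes of the deposited table of CPM, a scale that divides the reads of a gene by the total of its library.

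The study compared 2 mouse ESC lines. The line labelled shDis3l2 carried a short hairpin RNA against Dis3l2, a 3′ to 5′ exoribonuclease that degrades uridylated RNA, and the line labelled shLacZ carried a hairpin against the bacterial LacZ gene as the control. By the study's methods both were stable knockdown derivatives of a line with an Osr1-GFP reporter, which marks renal progenitors. Series of 7 values below run in the order of sampling, from d0 to d12. The labels give d0 as 2i, and d2, d4, d6, d8, d10 and d12 as EBs. By the study's methods, ESCs before differentiation were kept in LIF and 2i, the cytokine and kinase inhibitors that hold ESCs in the pluripotent state. EBs were begun as hanging drops and then kept in suspension, in medium with serum and without LIF or 2i. There was 1 library per line and day, 14 in all, and the sources used here do not say whether a line was 1 clone. The methods name no agent that directs cells to bone or cartilage.

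Sox9 is the transcription factor that commits mesenchymal cells to cartilage, and Sox5 works beside it on the same matrix genes. Runx2 commits cells to the osteoblast, the bone-forming cell, and Sp7 (osterix) acts downstream of it. Msx1 and Msx2 are homeobox factors of limb, skull and other embryonic mesenchyme that respond to BMP signals. Among the products, Acan (aggrecan) and Comp are secreted into cartilage matrix, Alpl is the alkaline phosphatase that frees phosphate for mineral, and Spp1 (osteopontin) is a secreted phosphoprotein of bone. Several of these genes are used outside the skeleton: Alpl activity is a classic stain for ESCs, and Spp1 is made by macrophages and other cells.

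Sequence upstream of the transcription start is shown for 3 members on which the results below turn: Spp1, per exon length the most abundant member in most libraries, Sox5, with the largest difference between the lines in the later EBs among the members tested, and Msx1, which peaked on the same day in both lines. RefSeq promoter sequences (GRCm38.p6) were matched for 7 of the 10 members, and stretches of 250 bases that overlap no annotated exon of the gene itself were kept for 5 of them, Spp1, Sox5, Msx1, Alpl and Acan. Those of Runx2 and Msx2 overlap such an exon, and Sox9, Sp7 and Comp were not matched. They were searched on both strands for TGTGGT, the core letters bound by RUNX factors, ACAAT, the core letters bound by SOX factors, and GGCGCC, a palindromic element bound by SMAD proteins. Of 32536 RefSeq promoters cut to the same length, 14% held the first, 27.4% the second and 9.65% the third. Capitals mark a match, each line runs 5′ to 3′ on the strand of the gene, and the last base lies next to the start.

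Spp1, chr5:104434861-104435110, plus strand: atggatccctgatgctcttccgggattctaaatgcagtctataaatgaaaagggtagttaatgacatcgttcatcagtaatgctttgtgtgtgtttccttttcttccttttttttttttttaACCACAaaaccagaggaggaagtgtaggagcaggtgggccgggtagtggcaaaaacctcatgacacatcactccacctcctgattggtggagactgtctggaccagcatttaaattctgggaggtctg
Sox5, chr6:143947107-143947356, minus strand: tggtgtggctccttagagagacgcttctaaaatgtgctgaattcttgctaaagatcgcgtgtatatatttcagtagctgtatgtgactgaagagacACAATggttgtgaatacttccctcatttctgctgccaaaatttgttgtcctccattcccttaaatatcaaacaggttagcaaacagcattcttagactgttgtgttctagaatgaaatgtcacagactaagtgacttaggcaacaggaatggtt
Msx1, chr5:37824586-37824835, minus strand: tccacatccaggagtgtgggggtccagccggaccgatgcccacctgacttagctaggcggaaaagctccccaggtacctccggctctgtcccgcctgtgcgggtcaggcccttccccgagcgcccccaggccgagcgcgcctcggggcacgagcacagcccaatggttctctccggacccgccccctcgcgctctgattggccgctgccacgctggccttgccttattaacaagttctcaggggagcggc

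The Spp1 and Msx1 stretches lie upstream of the gene. The Spp1 stretch held 1 match to the RUNX letters, on the opposite strand and beginning 128 bases before the start. The Sox5 stretch lies within the gene, outside its annotated exons and before an internal start, and held 1 match to the SOX letters, 154 bases before that start. The Msx1 stretch held no match to any of the letter groups. GC content was 43.6% for Spp1, 39.6% for Sox5 and 68.0% for Msx1. Of the other stretches searched, the one before the distal start of Alpl held 1 SMAD match, beginning 66 bases before the start, and that of Acan held none. These matches describe the letters of the reference genome and were not tested for binding.

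Depth ranged from 7178712 to 39888099 reads on genes. A value of 3 reads, taken as the floor, was 0.418 CPM in the shallowest library (shLacZ d4) and 0.0752 CPM in the deepest (shLacZ d0). Levels are given as CPM of the reads counted over all genes, and every interval is a 95% interval that covers counting error only. The knockdown was deepest in ESCs and less so in later EBs. The ratio of Dis3l2 in the library labelled shDis3l2 to that in shLacZ was 0.137 (0.111 to 0.167) at d0 and 0.552 (0.449 to 0.675) at d6. Its intervals included equal levels on d8, with a ratio of 0.971 (0.837 to 1.13), and on d10, with 0.950 (0.788 to 1.15). The last day, d12, gave 0.754 (0.609 to 0.934). The 10 pluripotent cell markers all reached 1 CPM at d0 and summed to 3759 CPM for shLacZ and 2675 CPM for shDis3l2, and to 442 and 72.9 CPM at d6. At d0 the median gene was lower in shDis3l2 by 0.32 on the log2 scale, and the shift was -0.12 after TMM scaling and 0.08 after scaling by the size factors of DESeq2. Differences at d0 are read against that shift.

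**Figure D1:**
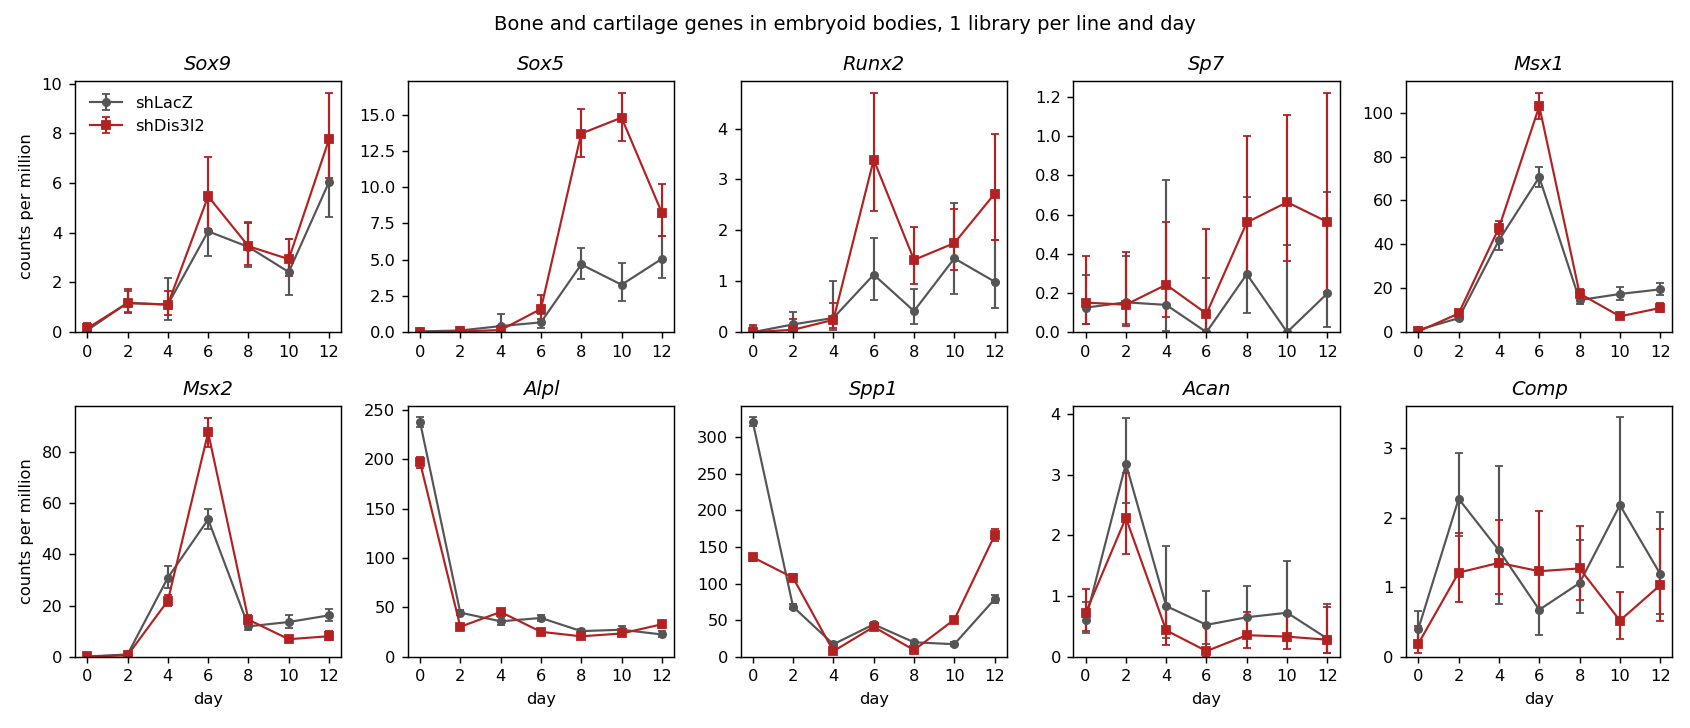
CPM of the 10 genes by day (d0 to d12) in shLacZ (grey circles) and shDis3l2 (red squares), each on its own linear axis from 0. Each point is 1 library and the bars are 95% intervals for counting error. Msx1 and Msx2 peak at d6 in both lines, Alpl is highest at d0, and Sox5 separates the lines at d8 and d10.

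Single days have 1 library per line, so their differences carry no replicate check or p-value. The call used for them asks for a 3-fold difference after a prior of 0.25 reads, and for 1 CPM or more in either library. Of the 70 member and day pairs, 47 reached that CPM, and 2 were called higher and 1 lower in shDis3l2. Runx2 was called higher at d8, when 5.47% of all protein-coding genes compared were called higher. Sox5 was called higher and Comp lower at d10, when 8.65% of genes were called higher and 3.13% lower. Runx2 at d8 and Comp at d10 reached 1 CPM only in the library in which they were higher. Over the 7 days in turn, 2.84%, 0.243%, 2.04%, 6.92%, 9.18%, 11.8% and 9.51% of genes were called in either direction, so calls became more common in the later EBs for genes at large. The calls of 1 of 8 members compared at d8 and 2 of 8 at d10 are read against those shares.

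To compare the lines over the later EBs, edgeR's quasi-likelihood test was fitted to all genes with day as a block over d6, d8, d10 and d12. The days of 1 series stand in for replicates there, so the test asks whether a difference was steady over days in these 2 series and not whether it would recur in other cultures. It tested 17164 genes, of which 19.6% were higher and 18.7% lower in shDis3l2 at an adjusted p under 0.05. Of the members, 8 had enough reads to be tested, and 2 of these, Sox5 and Runx2, passed, both higher in shDis3l2. Sp7 and Acan had too few reads. Over all 7 days, where 5.72% of 20050 genes were called in either direction by edgeR, 0 of the 10 members were called, 2 had an unadjusted p under 0.05 and DESeq2 called 0. For a change of the difference between d0 to d4 and d6 to d12, where 10.1% of 20050 genes were called, edgeR called 0 members, 1 had an unadjusted p under 0.05, and DESeq2 called 1, Sox5.

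Sox9 (ENSMUSG00000000567, chromosome 11, 112782224 to 112787760, plus strand, GRCm38) was higher in EBs than in ESCs in both lines, and no day separated the lines beyond counting error. Levels in shLacZ were 0.0752, 1.18, 1.11, 4.06, 3.43, 2.42 and 6.05 CPM. Those in shDis3l2 were 0.151, 1.17, 1.11, 5.47, 3.46, 2.94 and 7.77 CPM. Both series were lowest at d0 and highest at d12, with a dip between d6 and d12. From d0 to d6 the ratio was 54.0 (17.5 to 270) in shLacZ and 36.2 (13.4 to 137) in shDis3l2. Between the lines the interval of the ratio included 1 on every one of the 7 days, and at d12 the ratio was 1.28 (0.912 to 1.82). Its log2 fold change over d6 to d12 was 0.26 (SE 0.18, edgeR adjusted p = 0.285).

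Sox5 (ENSMUSG00000041540, chromosome 6, 143828425 to 144781977, minus strand) appeared later than Sox9 and differed more between the lines. The shLacZ series of Sox5 was 0.0501, 0.114, 0.418, 0.676, 4.67, 3.27 and 5.06 CPM. The shDis3l2 series was 0, 0.0467, 0.145, 1.60, 13.7, 14.8 and 8.24 CPM. Up to d4 no library held more than 3 reads of it, too few to compare the lines. On each of the 4 later days shDis3l2 was the higher library, but the ranges over those days overlapped, from 0.676 to 5.06 CPM in shLacZ and from 1.60 to 14.8 CPM in shDis3l2. The ratio between the lines was 2.37 (0.999 to 6.03) at d6 and 2.93 (2.27 to 3.81) at d8. It reached 4.52 (3.05 to 6.97) at d10, the largest of the 4, and was 1.63 (1.14 to 2.35) at d12. The value at d8 lay just inside 3-fold and was not called. For Sox5 the log2 fold change over the late days was 1.43 (SE 0.27, edgeR adjusted p = 0.00655). It passed with any 1 of the 4 days left out, with adjusted p between 0.00373 and 0.0498, and missed the threshold without the day block (adjusted p = 0.169). The change of the difference from the early to the late days was 2.88 on the log2 scale (SE 0.89, edgeR adjusted p = 0.0649).

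Acan (ENSMUSG00000030607, chromosome 7, 79053483 to 79115099, plus strand) and Comp (ENSMUSG00000031849, chromosome 8, 70373558 to 70382066, plus strand), the cartilage matrix products, were near the limit of detection. Counted in reads, from libraries of unequal depth, Acan in shLacZ had 24, 84, 6, 7, 11, 6 and 3 reads. The shDis3l2 libraries had 19, 49, 9, 1, 7, 7 and 3 reads. Its highest level was that of d2 in both lines, 3.18 CPM (2.54 to 3.94) in shLacZ and 2.29 CPM (1.69 to 3.03) in shDis3l2, and it was under 1 CPM in the other 12 libraries. On no day did the interval of the ratio between the lines leave out 1, so a difference was not detectable on any day at this depth. The peak at d2 preceded the higher levels of Sox9 and Sox5 in the same series.

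Comp in shLacZ was at 0.401, 2.27, 1.53, 0.676, 1.06, 2.18 and 1.19 CPM. Comp in shDis3l2 was at 0.189, 1.21, 1.35, 1.23, 1.27, 0.521 and 1.03 CPM. The call at d10 rested on 18 reads in shLacZ and 11 in shDis3l2, a ratio of 0.239 (0.102 to 0.535). At d6 the ratio was 1.81 (0.716 to 4.80), in the opposite direction, and over d6 to d12 the log2 fold change was -0.30 (SE 0.49, edgeR adjusted p = 0.657). Comp lies on chromosome 8, where the median of 732 genes compared at d10 was -0.37 on the log2 scale against 0.01 for all 13768. The part of that shift in the value of Comp was not tested.

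Runx2 (ENSMUSG00000039153, chromosome 17, 44495987 to 44814797, minus strand) had no read in ESCs and was low in EBs. The 95% interval of its level in ESCs reached up to 0.0925 CPM in shLacZ and 0.139 CPM in shDis3l2. Its CPM was higher in shDis3l2 on each of the 4 late days. The reads of Runx2, from libraries of unequal depth, were in shLacZ 0, 4, 2, 15, 7, 12 and 10. Those in shDis3l2 were 0, 1, 5, 36, 28, 37 and 29. From d6 on this was 0.414 to 1.45 CPM in shLacZ and 1.42 to 3.39 CPM in shDis3l2, ranges that met at 1 value: shLacZ at d10 was just above shDis3l2 at d8. From d0 to d6 Runx2 rose from 0 reads, and the interval of the ratio began at 10.8 in shLacZ and at 23.1 in shDis3l2. Between the lines the ratio was 3.01 (1.61 to 5.92) at d6 and 3.44 (1.47 to 9.33) at d8. It was 1.21 (0.615 to 2.54) at d10, where the lines could not be told apart, and 2.74 (1.30 to 6.30) at d12. The value at d6 fell just short of the call once the prior was added. The log2 fold change of Runx2 over d6 to d12 was 1.24 (SE 0.33, edgeR adjusted p = 0.0232). Without d6 the adjusted p was 0.0642, without d8 it was 0.0977 and without d12 it was 0.0626, so the call for Runx2 rests on those days, and it was 0.0730 without the day block.

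Sp7 (ENSMUSG00000060284, chromosome 15, 102356609 to 102366325, minus strand) did not reach 1 CPM in any library. It had 5, 4, 1, 0, 5, 0 and 2 reads in shLacZ, and the shDis3l2 libraries had 4, 3, 5, 1, 11, 14 and 6. At d10 shDis3l2 had 14 reads against 0 in shLacZ, and the interval of the ratio began at 1.30. On the other 6 days the lines could not be told apart at this depth, and at d8 the ratio was 1.89 (0.606 to 6.95).

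**Figure D2:**
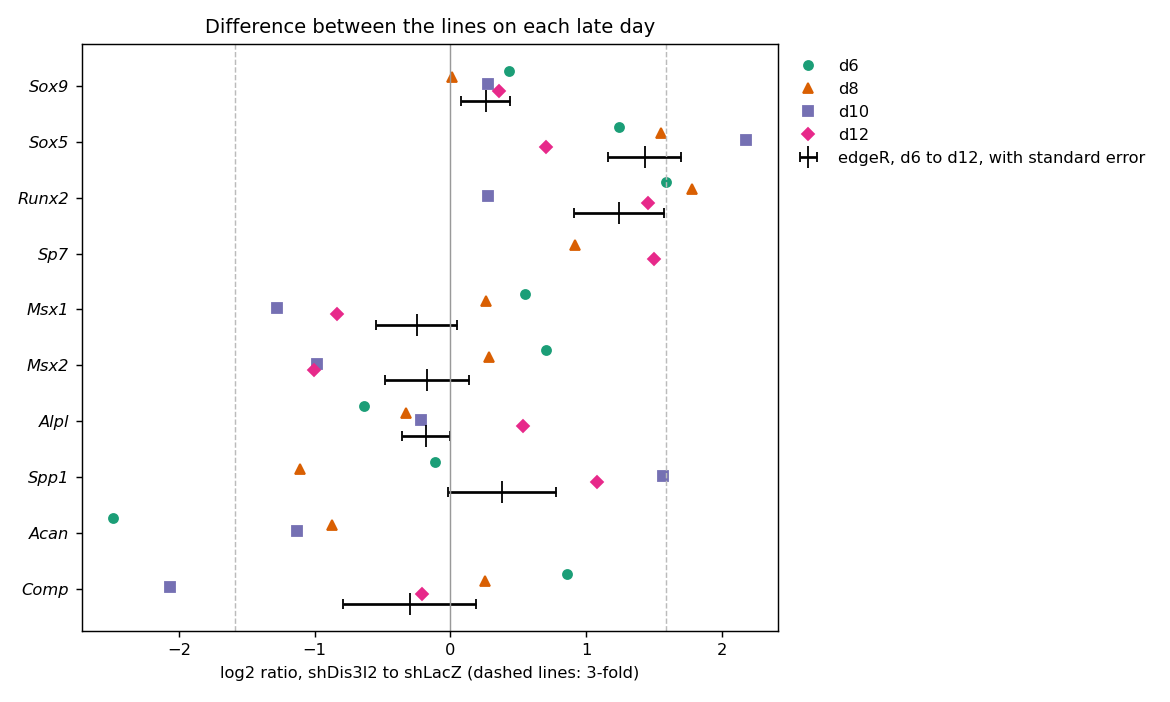
Ratio of shDis3l2 to shLacZ on a log2 axis for each gene at d6, d8, d10 and d12 (coloured symbols, 1 library per line each) and the edgeR estimate over those days with its standard error (black), for the 8 genes tested. Sox5, Runx2 and Sox9 lie to the right of 0 on all 4 days, Sox9 at d8 with a ratio of 1.01, as do the points shown for Sp7. Msx1, Msx2 and Spp1 lie on both sides. Acan at d12 and Sp7 at d6 are left out because both libraries held 3 reads or fewer, and Sp7 at d10 because shLacZ held 0.

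Alpl (ENSMUSG00000028766, chromosome 4, 137741733 to 137796384, minus strand) was a gene of ESCs in these series. Alpl in shLacZ was at 238, 44.7, 35.9, 39.3, 26.0, 27.4 and 22.6 CPM. Alpl in shDis3l2 was at 197, 30.4, 45.4, 25.3, 20.7, 23.6 and 32.9 CPM. Most of the loss came between d0 and d2, and the d6 to d0 ratio was 0.165 (0.151 to 0.180) in shLacZ and 0.128 (0.113 to 0.145) in shDis3l2. From d6 on, levels stayed within 20.7 to 39.3 CPM in both lines. The shDis3l2 library was lower at d6 and d8, with ratios of 0.643 (0.552 to 0.746) and 0.795 (0.693 to 0.912), and higher at d12, with 1.45 (1.23 to 1.72). Over the late days the log2 fold change was -0.18 (SE 0.18, edgeR adjusted p = 0.471). At d0 the log2 fold between the lines was -0.28 by library totals, -0.08 with TMM factors and 0.11 with DESeq2 size factors, so its direction there depends on the scaling.

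Spp1 (ENSMUSG00000029304, chromosome 5, 104435118 to 104441050, plus strand), whose upstream stretch is printed above, was high at both ends of the series. Spp1 in shLacZ was at 321, 68.3, 17.1, 44.3, 19.8, 17.2 and 78.7 CPM. Spp1 in shDis3l2 was at 136, 108, 7.63, 40.9, 9.16, 50.9 and 166 CPM. Both series were lowest at d4, and the sign of the difference between them changed from day to day. The ratio was 0.423 (0.407 to 0.439) in ESCs and 1.58 (1.49 to 1.69) at d2. It was below 1 again on d4 and d8, at 0.446 (0.350 to 0.569) and 0.463 (0.384 to 0.557). At the end of the series it was 2.96 (2.48 to 3.55) for d10 and 2.11 (1.94 to 2.29) for d12. The value of d10 was just under 3-fold. From d6 to d12 the ratio was 1.78 (1.59 to 1.98) in shLacZ and 4.06 (3.65 to 4.52) in shDis3l2, and the second was called. With all 4 late days the log2 fold change between the lines was 0.38 (SE 0.40, edgeR adjusted p = 0.495).

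Spp1 is also a macrophage product, and the summed level of macrophage- and osteoclast-like markers was higher in shDis3l2 at d10 and d12, when Spp1 was too. The summed level of the 12 markers in the shLacZ and shDis3l2 libraries was 54.2 and 77.5 CPM at d10, and 59.0 and 169 CPM at d12. At d10 and d12 8 of the 12 reached 1 CPM in shLacZ and 10 of the 12 in shDis3l2, with none at 0 reads. In the late days edgeR called 5 of 9 tested higher (Ptprc, Adgre1, Ctsk, Mmp9 and Tyrobp) and 1 lower (Acp5). Tyrobp, a signalling adaptor of myeloid cells, was at 3.27 and 23.3 CPM in the shLacZ and shDis3l2 libraries of d12. Cd68, a lysosomal protein of macrophages and the marker with the highest mean level, went the other way at d10, at 16.9 and 9.09 CPM with a ratio of 0.537 (0.429 to 0.672), and was at 13.4 and 18.3 CPM at d12. At d6 the sums were 31.8 and 50.9 CPM, of which Mmp9 was 12.8 and 40.7 CPM. Of the 5 markers that reached 1 CPM that day, 1 was higher and 4 were lower in shDis3l2, with a median log2 fold of -0.93. The ratio of Spp1 at d6 was 0.922 (0.813 to 1.05). The part of such cells in the level of Spp1 was not tested. In bulk RNA, fewer cells of a type and less RNA per cell cannot be told apart, here and in what follows.

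Msx1 (ENSMUSG00000048450, chromosome 5, 37820485 to 37824583, minus strand) rose and fell with Msx2 in both lines. Msx1 in shLacZ was at 1.03, 6.37, 41.9, 70.6, 14.6, 17.4 and 19.5 CPM. Msx1 in shDis3l2 was at 0.340, 8.50, 47.6, 103, 17.6, 7.20 and 11.0 CPM. The peak was at d6 in each line. Against d0 that peak was a ratio of 68.7 (50.2 to 96.3) in shLacZ and 303 (159 to 665) in shDis3l2, where d0 held 9 reads. From d6 to d12 the ratio was 0.277 (0.236 to 0.323) in shLacZ and 0.106 (0.0871 to 0.129) in shDis3l2. Between the lines the ratio was 0.331 (0.141 to 0.691) in ESCs, just short of the call with the prior. It was 1.46 (1.34 to 1.60) at the peak, 0.413 (0.327 to 0.522) at d10 and 0.561 (0.442 to 0.708) at the end.

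Msx2 (ENSMUSG00000021469, chromosome 13, 53466884 to 53473074, minus strand) was at 0.100, 0.910, 30.9, 53.7, 11.9, 13.6 and 16.2 CPM in shLacZ. Msx2 in shDis3l2 was at 0.113, 0.561, 21.9, 87.7, 14.5, 6.87 and 8.05 CPM. Both series were lowest in ESCs, with 4 reads in shLacZ and 3 in shDis3l2, and highest at d6. The ratio of the lines was 0.709 (0.603 to 0.837) at d4, 1.63 (1.48 to 1.80) at d6 and 1.22 (1.01 to 1.47) at d8. It was 0.507 (0.393 to 0.654) and 0.498 (0.379 to 0.651) on the last 2 days sampled. So shDis3l2 held the higher library at the peak and the lower one at the end, for Msx1 and for Msx2. Over the late days those opposite differences gave log2 fold changes of -0.25 (SE 0.30, edgeR adjusted p = 0.540) for Msx1 and -0.17 (SE 0.31, edgeR adjusted p = 0.694) for Msx2. The change of direction within the late days was not tested, since each of these days has 1 library per line.

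Both Msx genes are used outside the skeleton too. The summed level of trophoblast-like markers peaked on the same day as they did, and Hand1 and Cdx2 made up most of that sum. The summed level of these 8 markers in the libraries of d6 was 228 CPM for shLacZ and 368 CPM for shDis3l2, of which Hand1, also a gene of extraembryonic mesoderm and heart, was 151 and 299 CPM and Cdx2 61.5 and 55.3 CPM. Of the 8, 4 reached 1 CPM in either library of d6. Tpbpa, a gene of the spongiotrophoblast, had 1 read in shLacZ and 0 in shDis3l2 at d6 and was highest at d12, at 3.27 and 24.8 CPM, and Ascl2 was at 0.676 and 0.0942 CPM at d6. From d6 on, 5 of the 8 reached 1 CPM in shLacZ and 6 in shDis3l2, and Prl3d1, a product of trophoblast giant cells, was at 0 reads in shDis3l2. Over the same days edgeR called 1 marker higher (Gata3) and 1 lower (Cdx2) of 5 tested. The part of such cells in the Msx genes was not tested.

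Within a line, members were compared over the spans from d0 to d6 and from d6 to d12. From d0 to d6, 4 of the 6 members compared in shLacZ were called at least 3-fold higher (Sox9, Runx2, Msx1 and Msx2), when 27.2% of all genes were, and 2 lower (Alpl and Spp1), when 13.1% were. In shDis3l2, 6 of 8 were called higher (Sox9, Sox5, Runx2, Comp, Msx1 and Msx2), when 36.9% of genes were, and Alpl and Spp1 lower, when 14.4% were. All 6 were under 1 CPM at d0 in shDis3l2, as were Sox9, Runx2 and Msx2 in shLacZ. They entered the comparison only through the d6 library, in which they were high. The counts called higher are thus partly set by the filter, which was also used for the shares of all genes. From d6 to d12, 1 of 8 members was called higher in shLacZ (Sox5), when 6.27% of genes were, and 2 lower (Msx1 and Msx2), when 1.08% were. Sox5 was at 0.676 CPM at d6 in shLacZ and entered through d12. In shDis3l2, 2 of 8 were called higher (Sox5 and Spp1), when 14.4% of genes were, and the same Msx genes lower, when 2.01% were.

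On a scale per exon length (RPKM), Spp1 was the most abundant member in 10 of the 14 libraries and Msx1 in the other 4. At d12 the order in shLacZ was Spp1 at 47.8 RPKM, Msx1 at 6.31, Alpl at 5.61, Msx2 at 4.93, Sox9 at 1.46, Comp at 0.401, Sox5 at 0.352, Runx2 at 0.112, Sp7 at 0.0683 and Acan at 0.0398. The shDis3l2 order was Spp1 at 101 RPKM, Alpl at 8.15, Msx1 at 3.54, Msx2 at 2.46, Sox9 at 1.88, Sox5 at 0.573, Comp at 0.347, Runx2 at 0.307, Sp7 at 0.193 and Acan at 0.0376. With 1 library each, the error of neighbours such as Msx1, Alpl and Msx2, or Comp and Sox5, is known only for counting, and their order changed between the lines.

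Across the 14 libraries, Pearson's r of log2(CPM + 1) was 0.93 between Msx1 and Msx2, 0.85 between Sox9 and Runx2, 0.71 between Sox9 and Sox5, 0.70 between Sox5 and Runx2 and 0.56 between Alpl and Spp1. Acan and Sox9 had an r of -0.48 and Acan and Msx2 one of -0.59. These are descriptions over libraries that share a line or a day, with no p. Among 15350 protein-coding genes that reached 1 CPM, those most like Sox5 were Lum (0.991), a small proteoglycan of connective tissue, Sdpr (0.986) and Dnm3 (0.984). Those most like Msx1 were Pla2g7 (0.984), Prtg (0.973) and Mogat2 (0.968), and those most like Msx2 were Mogat2 (0.978), Arl2bp (0.970) and Cdx2 (0.969), a factor of trophectoderm and posterior embryo. Sox9 was most like Rasgef1b (0.946), Zhx3 (0.944) and Bmi1 (0.943), and Runx2 most like Efcab5 (0.951), Tlr4 (0.949), a receptor of bacterial lipopolysaccharide, and Tnfaip2 (0.940). Alpl was most like Tufm (0.985), a mitochondrial translation factor, Fbxl6 (0.983) and Fam195a (0.978). The values were lower for Spp1 and Comp. Spp1 reached 0.890 with Oas2 and 0.876 with Klhl10, and Comp reached 0.882 with Wipf3, 0.879 with Thnsl1 and 0.878 with Lmtk2. Acan was most like Ptchd3 (0.966), Pml (0.964) and Rasgef1c (0.963). With 14 points and this many genes, high values arise for genes that share only a course in time.

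Other genes of cartilage and bone were examined as lists, whose counts are to be read against the 19.6% of all genes called higher and 18.7% called lower by the same test. Of 18 cartilage matrix and chondrocyte products, 10 were tested over d6 to d12, and edgeR called 6 higher in shDis3l2 and 0 lower: the collagen genes Col2a1, Col9a1, Col9a2 and Col11a1, with Matn4 and Cilp. Their median log2 fold change was 1.13, against 0.02 for all genes tested. Col11a1, a collagen of cartilage fibrils that other mesenchyme also makes, was at 16.9 and 77.9 CPM in the 2 libraries of d12 (shLacZ, then shDis3l2, as below), with a log2 fold change over d6 to d12 of 1.94 (SE 0.16, edgeR adjusted p = 5.21e-04). Hapln1, with Col11a1 one of the most abundant genes of the list, did not pass (log2 fold change 0.79, SE 0.28, edgeR adjusted p = 0.0603). It was at 34.6 and 104 CPM at d6 and at 12.7 and 11.5 CPM at d12. Cilp, a matrix protein of deep cartilage, had 0 reads in shLacZ at d8, d10 and d12 and was at 2.79 and 6.74 CPM in shDis3l2 at d10 and d12. Col10a1, the collagen of hypertrophic cartilage, Matn1, Chad, Snorc, Epyc, Ucma, Cnmd and Prg4 had too few reads to test.

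Of 16 chondrocyte and growth plate regulators, 12 were tested, 3 were called higher (Sox6, Trps1 and Mef2c) and 3 lower (Ihh, Pth1r and Wwp2), with a median log2 fold change of 0.16. A count of 3 of 12 in each direction is close to the shares over all genes. Sox6 is the close relative of Sox5 that works with it in cartilage. Trps1, a GATA-type repressor of the growth plate, was at 8.03 and 39.7 CPM at d12, with a log2 fold change of 1.27 (SE 0.33, edgeR adjusted p = 0.0217). Pth1r, the receptor of parathyroid hormone that parietal endoderm also expresses, fell by 1.04 on the log2 scale (SE 0.17, edgeR adjusted p = 0.00390) and was at 392 and 264 CPM at d12. Endoderm-like markers differed the same way: 8 of 11 tested were called lower and 0 higher, and their summed level over d6 to d12 ranged from 2097 to 3892 CPM in shLacZ and from 490 to 1193 CPM in shDis3l2. At d4 that sum was already 529 CPM in shLacZ and 167 CPM in shDis3l2. The part of endoderm-like cells in the level of Pth1r was not tested.

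Of 17 osteoblast and osteocyte products, 6 were tested, 3 were called higher (Postn, Col1a1 and Col1a2) and 1 lower (Sparc), with a median log2 fold change of 1.37. Col1a1, the main collagen of bone, skin and tendon, was at 146 and 3539 CPM at d12, and its log2 fold change over d6 to d12 was 3.46 (SE 0.28, edgeR adjusted p = 5.00e-04). At d4 the order was the opposite for Col1a1, at 7.94 and 1.06 CPM with a ratio of 0.134 (0.0779 to 0.222), and for Postn, at 5.85 and 0.242 CPM with a ratio of 0.0413 (0.0128 to 0.104), both called lower when 1.68% of all genes were. Sparc (osteonectin), a matrix glycoprotein that endoderm also secretes, fell by 0.63 on the log2 scale (SE 0.07, edgeR adjusted p = 0.00122). The products that mark osteoblasts and osteocytes more narrowly, Bglap, Bglap2, Ibsp, Dmp1, Phex, Sost, Mepe, Ifitm5, Omd, Tnfrsf11b and Fgf23, had too few reads to test. The 3 products called higher over d6 to d12 are made by fibroblasts too. At d12 alone 5 of the 7 products that reached 1 CPM were called at least 3-fold higher, when 8.10% of all genes were. They were the same 3 with Bglap3 and Ifitm5, an osteoblast membrane protein, both named after their values were seen. Bglap3, at 0.397 and 1.31 CPM, and Ifitm5, at 0.0992 and 1.12 CPM, reached 1 CPM only in shDis3l2. The filter thus let both in through the library in which they were high, and the count of 5 of 7 is partly set by it. Ifitm5 had 1 read in shLacZ and 12 in shDis3l2 at d12, a ratio of 11.3 (1.68 to 484). Bglap3, a near copy of the osteocalcin gene whose reads may be shared with Bglap and Bglap2, had 4 and 14 reads, a ratio of 3.30 (1.04 to 13.8), was lower in shDis3l2 at d8, with 0.354 (0.124 to 0.898), and did not pass over d6 to d12 (log2 fold change -0.32, SE 0.62, edgeR adjusted p = 0.712).

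Of 19 osteoblast and skeletal mesenchyme regulators, 17 were tested, 8 were called higher (Twist1, Twist2, Zfp521, Alx4, Prrx1, Prrx2, Creb3l1 and Gli2) and 1 lower, with a median log2 fold change of 0.71. Prrx1, a homeobox factor of limb bud mesenchyme, was at 3.97 and 38.6 CPM at d12, with a log2 fold change of 2.16 (SE 0.40, edgeR adjusted p = 0.00650). Twist2, a repressor of Runx2 activity, was at 1.49 and 10.0 CPM, with a log2 fold change of 2.40 (SE 0.22, edgeR adjusted p = 6.64e-04). Of 9 genes of mineral formation and its inhibition, 7 were tested, and Enpp1 and Mgp were called higher and Ank and Slc20a2 lower, with a median log2 fold change of -0.22. Mgp, an inhibitor of calcification in cartilage and vessels, was at 0.496 and 12.5 CPM at d12, with a log2 fold change of 3.86 (SE 0.77, edgeR adjusted p = 0.00883). Of 5 tendon-like markers, 3 were tested, with a median log2 fold change of -0.09. Scx, the tendon factor, was called higher, at 0.198 and 1.69 CPM at d12, from 2 and 18 reads. Mkx, with the highest mean level, did not pass (log2 fold change -0.24, SE 0.21, edgeR adjusted p = 0.421). Nor did Thbs4 (log2 fold change -0.09, SE 0.58, edgeR adjusted p = 0.922).

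**Figure D3:**
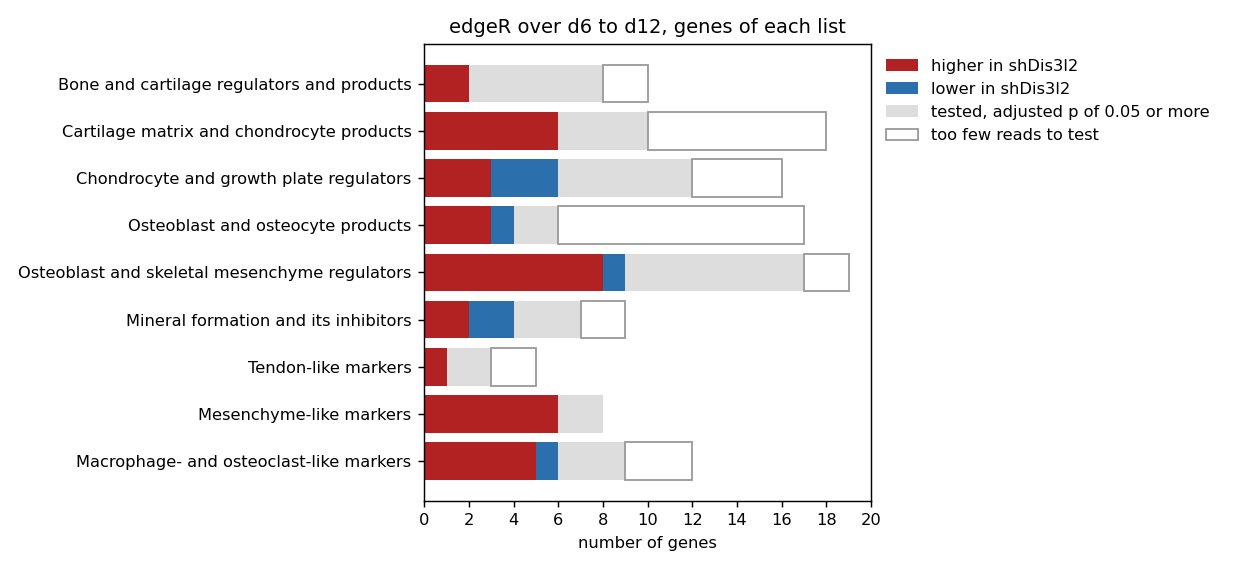
Number of genes of each list that edgeR called higher (red) or lower (blue) in shDis3l2 over d6 to d12, that were tested without passing (grey) or that had too few reads to test (white). The first bar holds the 10 members, with 2 higher, 6 not passing and 2 not tested.

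Msx1 and Msx2 are BMP target genes, and 7 other BMP response genes were set beside them. All 7 were tested over d6 to d12, 1 was called higher (Bambi) and 3 lower (Id1, Id2 and Id3), with a median log2 fold change of -0.18. Id1 was at 88.8 and 61.6 CPM at d6, the day on which Msx1 and Msx2 were higher in shDis3l2, and at 50.0 and 27.4 CPM at d10, when they were lower. Bambi, a decoy receptor, was at 86.7 and 152 CPM at d6 and at 35.7 and 161 CPM at d10.

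Markers of other cell types differed between the lines over the days on which Sox5 and Runx2 did. Of 8 mesenchyme-like markers, all were tested over d6 to d12, 6 were called higher (Pdgfrb, Col3a1, Lum, Dcn, Meox1 and Tcf21) and 0 lower, with a median log2 fold change of 1.76. Their summed level at d6, d8, d10 and d12 was 311, 1284, 1217 and 1069 CPM in shLacZ and 549, 5664, 9151 and 9349 CPM in shDis3l2. The gap in this sum was widest at d12, and the ratio of Sox5 was largest at d10. No largest day could be told for Runx2. The intervals of its ratio at d6, d8, d10 and d12 overlapped, from 1.21 (0.615 to 2.54) at d10 to 3.44 (1.47 to 9.33) at d8. Among the markers called higher, Lum had its largest ratio at d10, at 12.5 (11.3 to 13.8). The ratios of Col3a1 and Dcn were largest at d12, at 16.1 (15.7 to 16.6) and 29.9 (24.7 to 36.6). Most of the sum in shDis3l2 from d8 on was Col3a1, a collagen of fibroblasts, at 493 and 7939 CPM at d12. Pdgfra, a receptor of mesenchyme and the second most abundant of the markers, was at 480 and 628 CPM at d12 and did not pass (log2 fold change 0.17, SE 0.11, edgeR adjusted p = 0.231). At d4 Col3a1 was called lower in shDis3l2, at 12.3 and 0.870 CPM, as was Lum, at 1.53 and 0.0483 CPM. Over those days 7 of the 8 reached 1 CPM in shLacZ and 8 in shDis3l2, with none at 0 reads. Of 10 pluripotent cell markers 8 were called lower and 0 higher, with sums between 442 and 623 CPM in shLacZ and between 72.9 and 417 CPM in shDis3l2. Neural-like markers gave 1 call higher (Nes) and 3 lower (Sox1, Pax6 and Elavl3) of 8 tested. Neural crest-like markers gave 1 higher (Ngfr) and 2 lower (Foxd3 and Erbb3) of 7. In these small lists the share called higher was under the 19.6% of all genes and the share called lower was above the 18.7%. The part of these cell types in the levels of Sox5 and Runx2 was not tested.

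**Figure D4:**
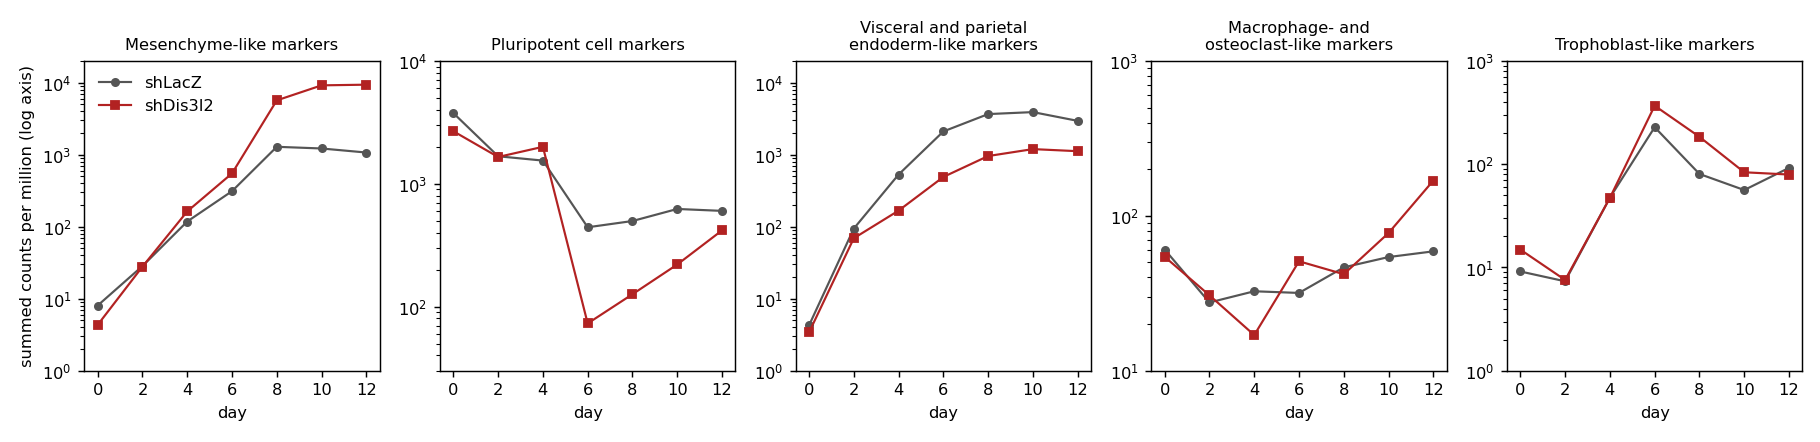
Summed CPM of 5 lists of cell type markers by day in shLacZ (grey) and shDis3l2 (red), 1 library per point, on log axes that differ between panels. Mesenchyme-like markers are at 311 (shLacZ) and 549 (shDis3l2) at d6 and reach 1069 and 9349 at d12. Pluripotent markers are lower in shDis3l2 from d6 on. Endoderm-like markers are already lower in shDis3l2 at d4, at 529 (shLacZ) and 167 (shDis3l2), and stay so.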

How the data were processed

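PolyA+ RNA of 2 lines at 7 days was sequenced, 1 library each. The authors aligned reads to GRCm38 (Ensembl 88) with Subread and featureCounts and deposited the counts per gene without normalization. Whether counting used strand is not given in the sources used here. Their deposited CPM values, checked here against the counts, are (count + 0.25) scaled by the total of the 16181 genes listed (largest relative difference 5.01e-15).

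CPM was computed here from the counts over all genes. Ratios carry exact (Clopper-Pearson) 95% intervals. These cover counting error only, as reads amplified without molecular identifiers can repeat 1 molecule. Lines were compared by the quasi-likelihood test of edgeR 4.0.16 (R 4.3.3, TMM, filterByExpr, Benjamini-Hochberg over all genes, day as a block, SE taken as the log2 fold change over the square root of F), tested on simulated data. DESeq2 1.42.0 was the alternative. Python 3.11.15, numpy 2.4.6, scipy 1.17.1 and pandas 2.3.3 were also used.

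The members and the 14 other lists were chosen with earlier results of these data known. Genes named are the members, Dis3l2, the 2 highest and the 2 most different at d12 of each list, and the 3 genes most like each member (log2(CPM + 1)). Of these the text gives the ones on which a result turns, and the names of those called in a list, which were seen with their values. Gene positions are those deposited with the counts, GENCODE M21 was used for gene types and annotated exons, and the columns headed shm5 were read as the shDis3l2 line. Some genes that these rules name are not reported here.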

Additional observations from a re-analysis of the deposited data

How the results depend on the processing

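The labels give no replicate numbers, so the lines were paired by day alone, as the block of the tests over days. The 2 calls higher and 1 lower on single days became 4 and 3 with no minimum CPM, 1 and 0 with a minimum of 5 CPM, and 8 and 7 with a fold of at least 2. The count of 2 members over d6 to d12 became 0 without the day block, where 1 had an unadjusted p under 0.05, and lay between 1 and 2 with each day left out in turn. The count of 0 for the change between early and late days became 1 with DESeq2 and 2 with no filter (Sox5 and Spp1), and lay between 0 and 1 with each day left out, Sox5 passing without d12 (adjusted p = 0.0418). Small differences changed sign, none past the threshold. Without the day block, over d6 to d12 Msx1 was at 0.17 and Msx2 at 0.28 on the log2 scale, and over the 7 days at 0.16 and 0.11. With single days left out, over d6 to d12 Spp1 ranged from -0.00 to 0.82, Comp from -0.63 to 0.28, Msx1 from -0.59 to 0.04 and Msx2 from -0.55 to 0.09. Over the 7 days Spp1 was at 0.01 with DESeq2 size factors and ranged from -0.27 to 0.19 with single days left out. For the change of the difference, Sox9 was at 0.13 without TMM, 0.04 with DESeq2 size factors, 0.03 with DESeq2 and with no filter, and 0.06 without the block, and Alpl at 0.01 without TMM. With single days left out that change ranged from -0.14 to 0.23 for Sox9, -0.38 to 0.02 for Alpl, -0.08 to 0.83 for Comp and -0.16 to 0.47 for Msx2. The cause was not tested. The calls of all genes over the 7 days fell from 382 higher and 765 lower to 4 and 9 without d8, 1 and 7 without d10 and 2 and 10 without d12, so the 0 members called there says little. Depth limits Sp7, Acan, Comp and Runx2.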
